A study of Rattus norvegicus with 6 samples.

Results

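Heat shock proteins and their J-domain, BAG and FKBP co-chaperones were followed in total lung of Ahr-knockout and wild-type rats, gene by gene and library by library. Members were the entries of the deposited table whose symbols name the HSP70, HSP110, HSP90, small HSP and HSP60/HSP10 genes, Dnaja, Dnajb and Dnajc genes, Bag1 to Bag6, Fkbp4 and Fkbp5. Of 82 such entries among 19828, 79 reached a value of at least 1 in 3 or more of the 6 libraries and were tested, out of 15386 tested genes in all. The groups were total lung of Sprague-Dawley rats lacking Ahr (Ahr-KO, 3 libraries) and of wild-type Sprague-Dawley rats (WT, 3 libraries). Both groups had been given Sugen with hypoxia (SuHx), a rat model of pulmonary arterial hypertension in which a VEGF receptor inhibitor is combined with low oxygen, and both were sampled at day 56. All libraries therefore came from treated animals, and the sources used here give neither the position of the Ahr edit nor the age of the rats. Libraries are numbered 0 to 2 within a group, as in the table, and those numbers are names only.

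Chaperones bind unfolded proteins and release them in cycles driven by ATP. J-domain proteins bring clients to HSP70 and start its ATP hydrolysis, while HSP110, BAG proteins and HSPBP1 exchange the nucleotide and end the cycle. HSP90 acts later, on clients close to their final shape, and holds the unliganded aryl hydrocarbon receptor, the product of Ahr, in the cytosol together with p23. The endoplasmic reticulum (ER) and mitochondria have their own HSP70 with their own partners. Heat shock factor 1 (HSF1) raises the cytosolic set, and the unfolded protein response raises the ER set.

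Each value is a normalised, estimated read count. The library totals were 18.9 to 19.3 M in Ahr-KO and 17.8 to 18.0 M in WT, and the smallest recurring step put the depth at 14.2 to 23.6 M reads per Ahr-KO library and 12.9 to 21.9 M per WT library. Ahr itself was read at 2399, 3923 and 3575 in Ahr-KO libraries 0, 1 and 2 and at 2940.0, 2860.4 and 3395 in WT libraries 0, 1 and 2, and the sources do not say whether those reads fall in the edited part, so this value does not check the labels. Its target Cyp1a1 was at 10.5 or below in Ahr-KO and at 23512 or above in WT. T cell markers fell for 7 of 8 tested genes, where 6.26% of all tested genes fell. In bulk tissue fewer cells of a type and less RNA per cell cannot be told apart. Differences below are log2 fold changes, Ahr-KO minus WT after adding 1 to each value, ± SE, from limma-trend with Benjamini-Hochberg adjustment over all tested genes. Means are given ± SD over n = 3 libraries.

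Few chaperone genes differed between genotypes past the threshold. Of 79 members, 1 (1.27%) had a limma adjusted p under 0.05, the threshold used throughout, where 10.8% of all tested genes did. That member, Hspa12b, was higher in Ahr-KO, as were 4.5% of all tested genes. No member was called lower, where 6.26% of all tested genes were. At an unadjusted p under 0.05 limma-trend gave 6 members higher and 5 lower, together 13.9% of members against 27.9% of all tested genes. Among the 6 is Hspb9, which passed the filter only through the Ahr-KO libraries, and without it and other genes of a mean under 100 the counts were 5 higher and 5 lower of 71 members. Of all 11133 tested genes with a mean of at least 100, 1823 were higher and 1466 lower at that unadjusted p. With limma-voom Hspa12b was called higher and 1 member, Hspd1, lower. That method also moved the split over all tested genes, to 436 higher and 1290 lower, against 692 higher and 963 lower with limma-trend. The 3 values of one group lay wholly beyond those of the other for 15 members (19.0%), 7 with Ahr-KO above (all tested genes 17%) and 8 with Ahr-KO below (all tested genes 17.4%). Over all tested genes the share in either direction was 34.3%. The 7 also include Hspb9, and with a mean of at least 100 the counts were 6 above and 7 below of 71 members. Of all 11133 such genes, 2270 lay wholly above and 1747 wholly below. The median log2 difference was -0.01 for the members and 0.01 for all tested genes, with 39 members above 0 and 40 below.

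The members' differences were also small in size. For 67 of 79 members (84.8%) the 95% interval of the difference lay within a 2-fold change in either direction, and for 43 (54.4%) it lay within a 1.5-fold change. Over all tested genes these shares were 67.3% and 42.1%. Many genes in the table are read at low values, so the same was counted among genes with a mean of at least 100. Of 71 such members, 65 (91.5%) had an interval within 2-fold, against 85.6% of all 11133 such genes, and 60.6% against 57.5% had one within 1.5-fold. None of the 71 had an estimate of 1 or more on the log2 scale, which 3.95% of all such genes had, and 3 members (4.23%) lay between 0.5 and 1, where 12.8% of all such genes did. Those 3 were Hspa12b, Dnajc12 and Hspa4l. The 12 members whose interval reached past 2-fold included genes read at few counts, such as Dnajc6, Dnajb7, Hspb9 and Dnajc5g, and genes that varied widely between libraries of one group, such as Fkbp5 and Hspb7.

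**Figure D1:**
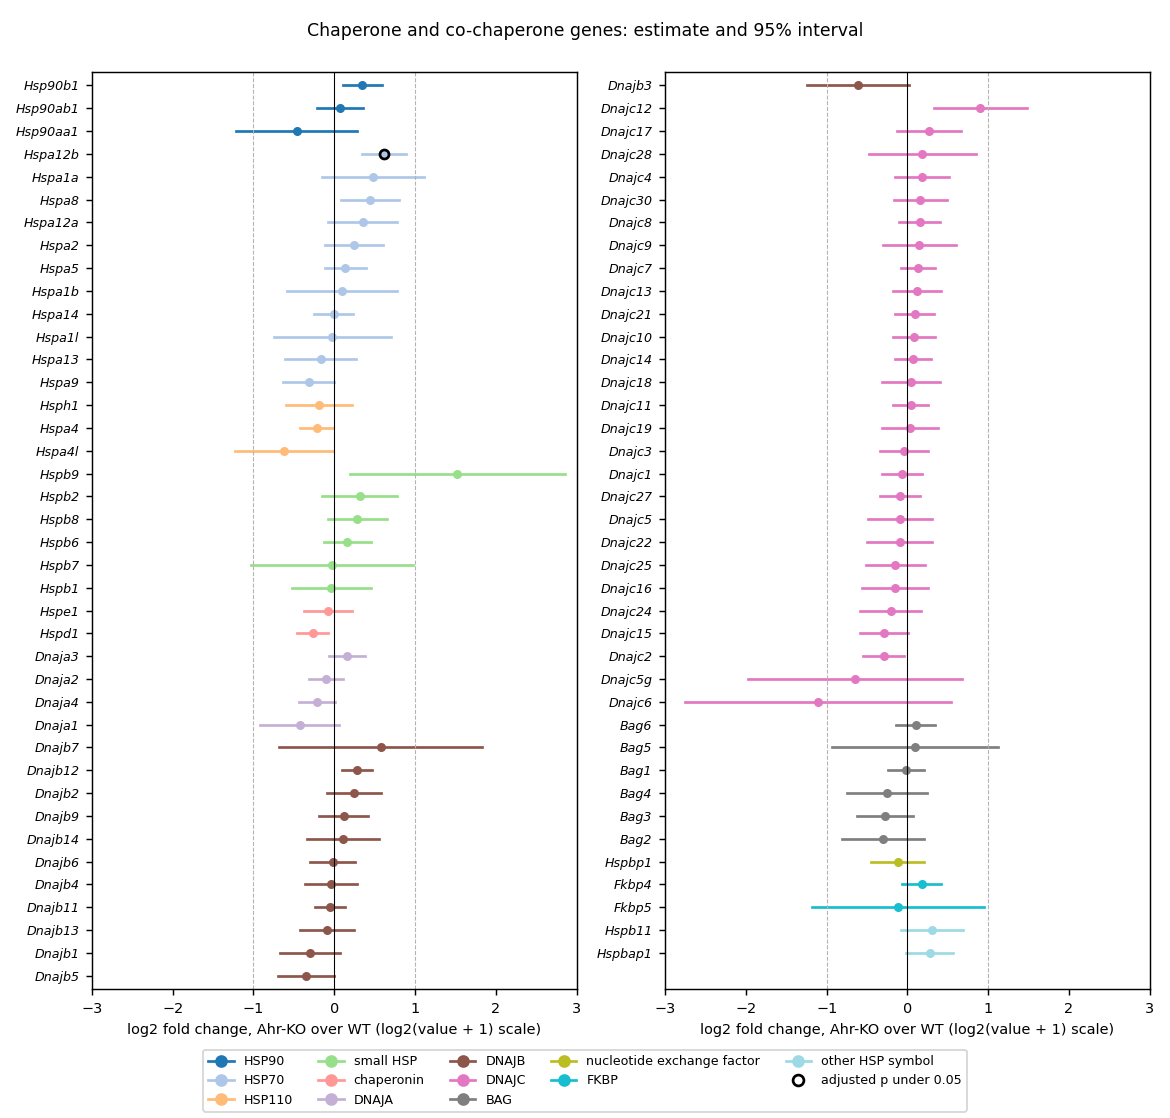
Log2 fold change of Ahr-KO over WT (x axis) for the 79 tested members (y axis, grouped by class), as the limma-trend estimate (point) and its 95% interval (line). The black ring marks Hspa12b, the single member with an adjusted p under 0.05, and the dashed lines mark a 2-fold change.

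**Figure D2:**
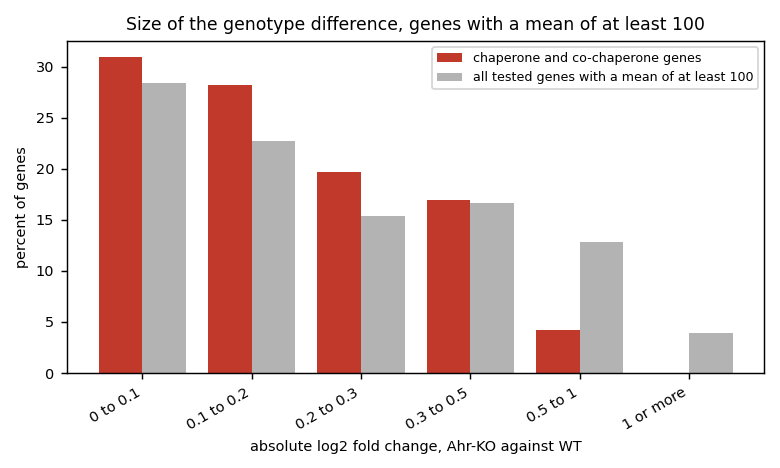
Percent of genes (y axis) by absolute log2 fold change (x axis) for the 71 members and all 11133 tested genes with a mean of at least 100. The members fill the smaller sizes, with 4.23% between 0.5 and 1 and 0 at 1 or more.

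Hsp90ab1, the constitutive cytosolic HSP90, was at 32242, 29696 and 29372 in Ahr-KO libraries 0, 1 and 2 and at 25588, 32090.1 and 29450.3 in WT libraries 0, 1 and 2. The groups overlapped, and the difference was 0.07 ± 0.12 with a 95% interval of -0.21 to 0.36 (adjusted p = 0.749). Hsp90aa1, the inducible cytosolic form, was at 455, 303 and 602 in Ahr-KO and at 607, 895 and 403 in WT, again with overlap and with WT library 1 the highest (-0.46 ± 0.33, adjusted p = 0.397). Its level is uncertain where reads were shared with related sequences. Ptges3, which encodes p23 of the receptor's cytosolic complex, was at -0.06 (adjusted p = 0.82). None of these 3 genes passed with limma-trend or limma-voom, and none had an unadjusted p under 0.05.

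Hsp90b1 encodes GRP94, the HSP90 of the ER, which folds integrins and Toll-like receptors. It was at 14869, 14944 and 13777 in Ahr-KO and at 10832, 12698 and 10778 in WT. All 3 Ahr-KO libraries lay above all 3 WT libraries, with a difference of 0.35 ± 0.10 (interval 0.11 to 0.59), but the adjusted p was 0.07.

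Among 11 tested HSP70 genes 1 rose, a distant relative of the classical ones. Hspa12b is known from endothelial cells and lacks the classical chaperone cycle of the family. It was at 3012, 3402 and 3308 in Ahr-KO libraries 0, 1 and 2 and at 2135, 2420.2 and 1831 in WT libraries 0, 1 and 2. The groups did not overlap, with means of 3240.5 ± 204 in Ahr-KO and 2129 ± 295 in WT, a 1.53-fold difference (0.61 ± 0.12, interval 0.34 to 0.88, adjusted p = 0.018). The call was lost without WT library 0 (adjusted p = 0.0547), Ahr-KO library 1 (0.0709) or Ahr-KO library 2 (0.0772). It was also lost without both libraries numbered 2 (0.0688) and with limma without the trend (0.0579). The estimate was between 0.51 and 0.71 in each fit that left out 1 library, and 0.49 without both libraries numbered 2. In the fits that lost the call, 4.63%, 3.46%, 2.67%, 3.69% and 6.19% of all tested genes were called, in that order, against 10.8% before.

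Endothelial markers moved beside it in part. Of 9 tested markers, 2 rose, 1 fell and 6 did not pass, where 4.5% of all tested genes rose and 6.26% fell. None of the 9 was at 0 in any library. With limma-voom 1 was called higher (Tek) and 1 lower (Emcn), and Pecam1 had an adjusted p of 0.0677. Tek, the angiopoietin receptor, was at 19401, 16997 and 13519 in Ahr-KO and at 8726, 7778 and 10364 in WT (0.89, adjusted p = 0.0156). Pecam1, an adhesion molecule of endothelial junctions, was at 10751, 8739 and 9943 in Ahr-KO and at 6306, 7972 and 5548 in WT (0.58, adjusted p = 0.0443). Emcn, a sialomucin of veins and capillaries, fell (-0.35, adjusted p = 0.042), and the von Willebrand factor gene Vwf was at -0.08 (adjusted p = 0.663). The summed marker level was 92715 to 106358 in Ahr-KO and 73971 to 82585 in WT. The part of endothelial content in the Hspa12b difference was not tested.

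The window upstream of Hspa12b is shown because it was the only member called. RefSeq places the 250 bases before its start at chr3:138799146-138799395 on the plus strand of GRCr8, whereas the submitters' notes name rn6. It held none of the motifs searched, and no base is in capitals.
Hspa12b: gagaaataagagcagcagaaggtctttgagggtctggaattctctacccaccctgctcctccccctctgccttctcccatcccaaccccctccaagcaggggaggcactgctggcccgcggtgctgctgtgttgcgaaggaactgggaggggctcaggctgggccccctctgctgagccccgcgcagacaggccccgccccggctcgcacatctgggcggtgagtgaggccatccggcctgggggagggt

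The classical HSP70 genes did not pass. Hspa8, the constitutive HSC70 of the cytosol, was at 3673, 3439.6 and 3766 in Ahr-KO and at 2059, 3008 and 3066 in WT. Every Ahr-KO library was above every WT library, yet WT library 0 stood far below the other WT libraries and the difference of 0.44 ± 0.15 had an adjusted p of 0.108. The stress-inducible Hspa1a was at 411, 429 and 362 in Ahr-KO and at 273, 445 and 193 in WT, so WT spanned the whole Ahr-KO range (0.48 ± 0.27, adjusted p = 0.301). Its near-identical neighbour Hspa1b was at 177, 139.7 and 156 in Ahr-KO and at 101, 232 and 134 in WT (0.09 ± 0.29, adjusted p = 0.867). Copies this similar can share reads, which was not measured here, so the level of each is uncertain. Hspa5, the BiP chaperone of the ER, was at 9026, 9821 and 9777 in Ahr-KO and at 7845, 9976 and 8311 in WT, an overlap (0.14 ± 0.11, adjusted p = 0.468). Hspa9, the mortalin of the mitochondrial matrix, was at 1420.1, 1281 and 1281 in Ahr-KO and at 1361, 1677 and 1959.8 in WT (-0.31 ± 0.14, adjusted p = 0.182). The remaining HSP70 genes ran from -0.17 for Hspa13, a microsomal relative, to 0.35 for Hspa12a, the paralogue of Hspa12b, which had an adjusted p of 0.262.

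J-domain genes made up 43 of the 79 tested members, and 0 of them passed the limma threshold (2 were higher and 2 lower at an unadjusted p under 0.05, and limma-voom also called 0). Over all tested genes 10.8% passed with limma-trend and 27.9% had an unadjusted p under 0.05. The median difference of the J-domain genes was -0.02, with 21 above 0 and 22 below. Dnajc12, a partner of the aromatic amino acid hydroxylases that make dopa and serotonin precursors, had the largest estimate among members with a mean of at least 100. It was at 417, 305 and 339.7 in Ahr-KO and at 127, 214 and 241 in WT. The groups did not overlap, and the 1.87-fold difference (0.90 ± 0.25, interval 0.33 to 1.48) had an adjusted p of 0.0579. Without WT library 2 it was 1.08 with an adjusted p of 0.0348. Dnajb12, an ER membrane protein whose J-domain faces the cytosol, was at 1471, 1419.8 and 1426 in Ahr-KO and at 1217, 1184 and 1155 in WT. Both groups were tight and lay apart, for a 1.21-fold difference of 0.28 ± 0.08 (adjusted p = 0.0623).

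On the lower side, Dnajc2, which works on nascent chains at the ribosome, was at 540.0, 575 and 492 in Ahr-KO and at 652, 707 and 613 in WT. The groups did not overlap (-0.29 ± 0.11, adjusted p = 0.127). Dnajb5, a cytosolic relative of DNAJB1, was at 397, 346 and 438 in Ahr-KO and at 489, 585 and 434 in WT, with an overlap of 1 library from each group (-0.35 ± 0.15, adjusted p = 0.178). Dnaja4 was at 1040.5, 1249.6 and 1115 in Ahr-KO and at 1295, 1341 and 1312 in WT, apart but close (-0.22 ± 0.10, adjusted p = 0.185). A further 4 J-domain genes lay wholly below WT without passing, namely Dnajb3, Dnajc15, Dnajc24 and Dnajc25, with differences of -0.61, -0.29, -0.21 and -0.15. In all, 6 of 43 J-domain genes lay wholly below WT and 2 wholly above, where 17.4% and 17% of all tested genes did. Dnajc8 shares its table entry with a microRNA gene, and that entry stood at 0.15 (adjusted p = 0.417). Dnajb13, a radial spoke protein of motile cilia, was at 205 ± 14.1 in Ahr-KO and 218 ± 22.3 in WT (-0.09, adjusted p = 0.747). Of 11 tested ciliated cell markers, 3 fell (Foxj1, Dnai2 and Spag6) and 1 rose (Tppp3), where 6.26% of all tested genes fell and 4.5% rose. With limma-voom 4 markers were called lower and 1 higher, and 10 of the 11 limma-trend estimates were below 0. The part of ciliated cell content in the Dnajb13 values was not tested.

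None of the 10 nucleotide exchange factors passed with limma-trend or limma-voom, and 2, Hspa4 and Hspa4l, had an unadjusted p under 0.05. Over all tested genes 10.8% passed with limma-trend and 27.9% had an unadjusted p under 0.05. Hspa4, an HSP110 of the cytosol, was at 3886, 4009 and 3642 in Ahr-KO and at 4191, 4429.8 and 4793 in WT. Its groups did not overlap (-0.22 ± 0.09, adjusted p = 0.157). Hspa4l, its paralogue, was at 144, 198 and 117 in Ahr-KO and at 203, 189 and 319 in WT, with 1 WT value inside the Ahr-KO range (-0.62 ± 0.26, adjusted p = 0.17). Hsph1, the heat-inducible HSP110, was at 2169, 2185 and 1731 in Ahr-KO and at 1864, 2968 and 2202 in WT (-0.19 ± 0.18, adjusted p = 0.527). Bag3, which pairs with HSPB8 in selective autophagy, was at 859, 761 and 903 in Ahr-KO and at 1041, 1214 and 825 in WT, an overlap (-0.27 ± 0.15, adjusted p = 0.281). Bag2, an inhibitor of the ubiquitin ligase CHIP, had a difference of -0.30 ± 0.22 (adjusted p = 0.413), and the other 4 BAG genes ran from -0.25 to 0.10. Hspbp1 was at -0.12 ± 0.14 (adjusted p = 0.63).

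Small heat shock proteins hold unfolding proteins without ATP. Hspb1, or HSP27, was at 3326, 4386 and 4208 in Ahr-KO and at 4419, 5163 and 2891 in WT (-0.03 ± 0.21, adjusted p = 0.937). The WT range again enclosed that of Ahr-KO. Hspb8, the BAG3 partner, was at 998, 1071 and 1138 in Ahr-KO and at 695, 894 and 1077 in WT (0.29 ± 0.16, adjusted p = 0.281). Hspb6 and Hspb2, known from muscle, were at 0.16 (adjusted p = 0.451) and 0.31 (0.358). Beside them, 0 of 8 smooth muscle markers passed with limma-trend or limma-voom (3 had an unadjusted p under 0.05, against 27.9% of all tested genes). The summed level of these markers was 31778 to 50490 in Ahr-KO and 23642 to 34083 in WT. Hspb9, known from testis, was near the limit of detection at 1.61, 4.13 and 5.46 in Ahr-KO and at 1.00, 0.821 and 0 in WT, and it entered the test only through the Ahr-KO libraries. Just inside the filter stood also Dnajb7 (1.61, 4.13 and 5.46 in Ahr-KO and 1.00, 2.46 and 2.80 in WT) and Dnajc5g (0, 0.826 and 1.36 in Ahr-KO and 1.00, 2.46 and 1.40 in WT). Just outside were Hspb3 (0, 3.31 and 0 in Ahr-KO and 0, 0.821 and 1.40 in WT), Dnajb8 and Dnajc5b, each of the last 2 with a value above 0 in 1 library.

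The mitochondrial chaperonin pair is encoded head to head. Hspd1 encodes HSP60, the folding chamber, and Hspe1 encodes HSP10, its lid. Hspd1 was at 2222, 2017 and 1971 in Ahr-KO and at 2434, 2607 and 2437 in WT. The groups lay apart, and the difference of -0.27 ± 0.09 (interval -0.47 to -0.07) had an adjusted p of 0.0859. Other scalings took it past the threshold, with -0.36 and an adjusted p of 0.041 for limma-voom and 0.0364 where library totals were made equal, and -0.35 and 0.0421 for quantile normalisation. Hspe1 was at 701, 626 and 573 in Ahr-KO and at 651, 757 and 593 in WT, with overlap (-0.07 ± 0.13, adjusted p = 0.76). The difference between the pair was not tested.

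The promoter shared by that pair carries one of the few heat shock elements found, and 2 overlapping matches lie in it. RefSeq puts 289 bases between the starts, on opposite strands of chromosome 9, and the 250 bases before Hspe1, at chr9:64084077-64084326 on the plus strand of GRCr8, fall in that gap. Capitals mark the matches.
Hspe1: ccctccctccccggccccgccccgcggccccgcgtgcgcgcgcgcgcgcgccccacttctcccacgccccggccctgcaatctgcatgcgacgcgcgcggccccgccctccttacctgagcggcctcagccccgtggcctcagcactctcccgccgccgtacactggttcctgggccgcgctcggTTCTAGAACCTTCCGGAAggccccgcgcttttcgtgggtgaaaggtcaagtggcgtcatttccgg

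Promoter windows from 250 bases before to 50 bases after the start were in the RefSeq table for 64 of the 79 tested members. The other 15, among them Hsp90aa1 and Hspa1b, had no window and could not be searched. Members with a motif are counted by gene, whereas motif shares over all 33469 windows are by window and not limited to tested genes. The heat shock element was searched as 3 alternating inverted units, either GAA, any 2 bases, TTC, any 2 bases, GAA or TTC, any 2 bases, GAA, any 2 bases, TTC, on both strands, and matches may overlap. It was found for 5 members (7.81%), against 0.798% of all 33469 windows. They were Hspd1 and Hspe1, which share it, and the 3 genes below, whose capitals mark the element. The Dnaja1 match begins 9 bases after the start, that of Hsph1 runs from 36 to 24 bases before it, within the printed stretch chr12:10427326-10427350, and the nearer one of Hspa8 ends 43 bases before the start.
Dnaja1: cgggcgGAACTTTCCAGAAcgctcg
Hsph1: cgcagaTTCTGGAAAGTTCtcctca
Hspa8: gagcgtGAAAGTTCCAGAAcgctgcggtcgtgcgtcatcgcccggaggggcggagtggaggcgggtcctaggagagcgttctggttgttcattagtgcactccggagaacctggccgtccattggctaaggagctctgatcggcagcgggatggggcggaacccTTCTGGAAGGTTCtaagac
The estimates of these 5 genes had both signs, and none passed with limma-trend on the values as given. Dnaja1, a cytosolic J-protein, was at 3468, 2192 and 2369.5 in Ahr-KO and at 3024, 4613 and 3152 in WT (-0.43 ± 0.21, adjusted p = 0.234), while Hspa8 was at 0.44.

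The ER stress response element, CCAAT and CCACG with any 9 bases between them, was found on either strand for 3 members (4.69%), against 0.0657% of all windows. All 3 encode proteins of the ER lumen, and Hsp90b1 holds 2 matches, 1 on each strand. They are shown with the element in capitals, from chr3:38452967-38452997 (plus strand), chr7:23012341-23012475 (minus strand) and chr15:102432528-102432558 (plus strand) of GRCr8.
Hspa5: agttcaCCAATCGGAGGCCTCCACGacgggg
Hsp90b1: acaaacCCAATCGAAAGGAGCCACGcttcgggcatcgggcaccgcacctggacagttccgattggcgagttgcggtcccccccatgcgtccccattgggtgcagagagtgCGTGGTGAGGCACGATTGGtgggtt
Dnajc3: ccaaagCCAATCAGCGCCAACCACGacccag
Dnajc3 encodes P58IPK, a co-chaperone of BiP. It was at 696, 653 and 669.8 in Ahr-KO and at 595, 680.0 and 813 in WT, with the WT range on both sides (-0.04 ± 0.13, adjusted p = 0.882). The core of the AHR response element, GCGTG on either strand, was in 34 of 64 members' windows (53.1%), against 29.7% of all windows. The members' windows were also richer in G and C, with a median of 61.7% against 51.7%.

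Read by compartment, no ER member passed with limma-trend or limma-voom (2 of 14 had an unadjusted p under 0.05, against 27.9% of all tested genes). Of the mitochondrial members only Hspd1 passed, with limma-voom but not with limma-trend on the values as given. The further scalings listed for Hspd1 above also took it past the threshold. The 14 ER members had a median of 0.06 and ran from -0.17 to 0.35, and all 14 intervals lay within a 2-fold change. Dnajb9, the ERdj4 that the unfolded protein response induces, was at 835, 732 and 630.2 in Ahr-KO and at 624, 655 and 739 in WT, with overlap (0.12 ± 0.13, adjusted p = 0.605). Dnajb11, the ERdj3 that binds BiP, was at -0.06 ± 0.08 and Dnajc10, the disulfide reductase ERdj5, at 0.08 ± 0.11. The 9 mitochondrial members had a median of 0.04, a range of -0.31 to 0.18, and likewise 9 intervals within 2-fold. The 47 members of cytosol and nucleus had a median of -0.02 and 37 intervals within 2-fold.

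Genes of the same pathways with other symbols were then counted, and limma-voom called 0 in each list unless stated. Over all 15386 tested genes, 10.8% passed and 27.9% had an unadjusted p under 0.05, namely 2055 higher and 2245 lower. Of 22 tested ER chaperones and folding enzymes, 0 passed the limma threshold and 0 had an unadjusted p under 0.05, with a median of 0.11. Of 18 cytosolic co-chaperones of HSP90 and HSP70, 0 passed and 0 had an unadjusted p under 0.05 (median 0.07). The 14 genes of the cytosolic chaperonin TRiC and of prefoldin had 0 past the threshold, 2 at an unadjusted p under 0.05, 1 lower with limma-voom and 14 intervals within 1.5-fold. Of 11 mitochondrial chaperones and proteases 0 passed and 3 had an unadjusted p under 0.05, all 3 of them higher (median 0.17). Among 5 genes of the heat shock factor group, including Hsf1 at 0.17 (adjusted p = 0.473), and 9 HSF1 targets outside the HSP symbols, 0 passed, and 0 and 1 had an unadjusted p under 0.05. The small heat shock gene Cryab, one of those targets, was at 3572, 4207 and 4303 in Ahr-KO and at 3268, 3335 and 2939 in WT (0.34, adjusted p = 0.0754).

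In the PERK and ATF4 branch of the stress response 1 of 9 genes rose and 1 fell, where 4.5% of all tested genes rose and 6.26% fell. At an unadjusted p under 0.05 there were 3 of the 9, against 27.9% of all tested genes. With limma-voom 1 was also called higher (Trib3) and 1 lower (Atf3). Trib3, a pseudokinase that ATF4 induces, was at 165, 241 and 222 in Ahr-KO and at 82.0, 102 and 101 in WT (1.12, adjusted p = 0.0151). Atf3, which is also an immediate early gene, was at 114, 171 and 177 in Ahr-KO and at 603, 289.9 and 397 in WT (-1.44, adjusted p = 0.0207). Both sets of values lay apart. Atf4 itself was at 0.24 (adjusted p = 0.236) and Ddit3, which encodes CHOP, at 0.24 (adjusted p = 0.31).

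WT library 1 held the highest value of the 6 libraries for 21 of 79 members (26.6%), against 12.7% of all tested genes. Among the 21 were Hspa1a, Hspa1b, Hsph1, Dnajb1, Dnaja1, Hsp90aa1, Hspb1 and Bag3, which are named here after their values were seen. Other members peaked elsewhere, such as Hspa8 and Hspb8 in Ahr-KO library 2 and Hspa4l in WT library 2. Dnajb1, the HSP40 that heat induces, was at 1364, 963 and 1120.0 in Ahr-KO and at 1271, 1693 and 1287 in WT (-0.30 ± 0.16, adjusted p = 0.263). Of the 9 HSF1 targets outside the HSP symbols, 5 were highest in WT library 1. Stip1, which links HSP70 to HSP90, was at 2004, 1774 and 1904 in Ahr-KO and at 1632, 2251 and 1949 in WT, and the collagen chaperone gene Serpinh1 at 8284, 8385 and 9576 in Ahr-KO and at 8323, 10511 and 8099 in WT. Immediate early genes followed another order. Their summed level was 16491 to 18186 in Ahr-KO and 31300, 20579.5 and 17234 in WT libraries 0, 1 and 2, and 11 of 12 peaked in WT library 0. With limma-trend 3 of 12 were called lower in Ahr-KO and 0 higher, against 6.26% and 4.5% of all tested genes. These were Egr1 (-2.57, adjusted p = 0.0211), Egr2 (-1.02, 0.0203) and Atf3. At an unadjusted p under 0.05 there were 7 lower and 0 higher, where 27.9% of all tested genes had such a p in either direction. With limma-voom Egr2, Atf3 and Ier3 were called lower, and Egr1 had an adjusted p of 0.0545. The part of these library differences in the comparison of genotypes was not tested beyond leaving out each library.

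**Figure D3:**
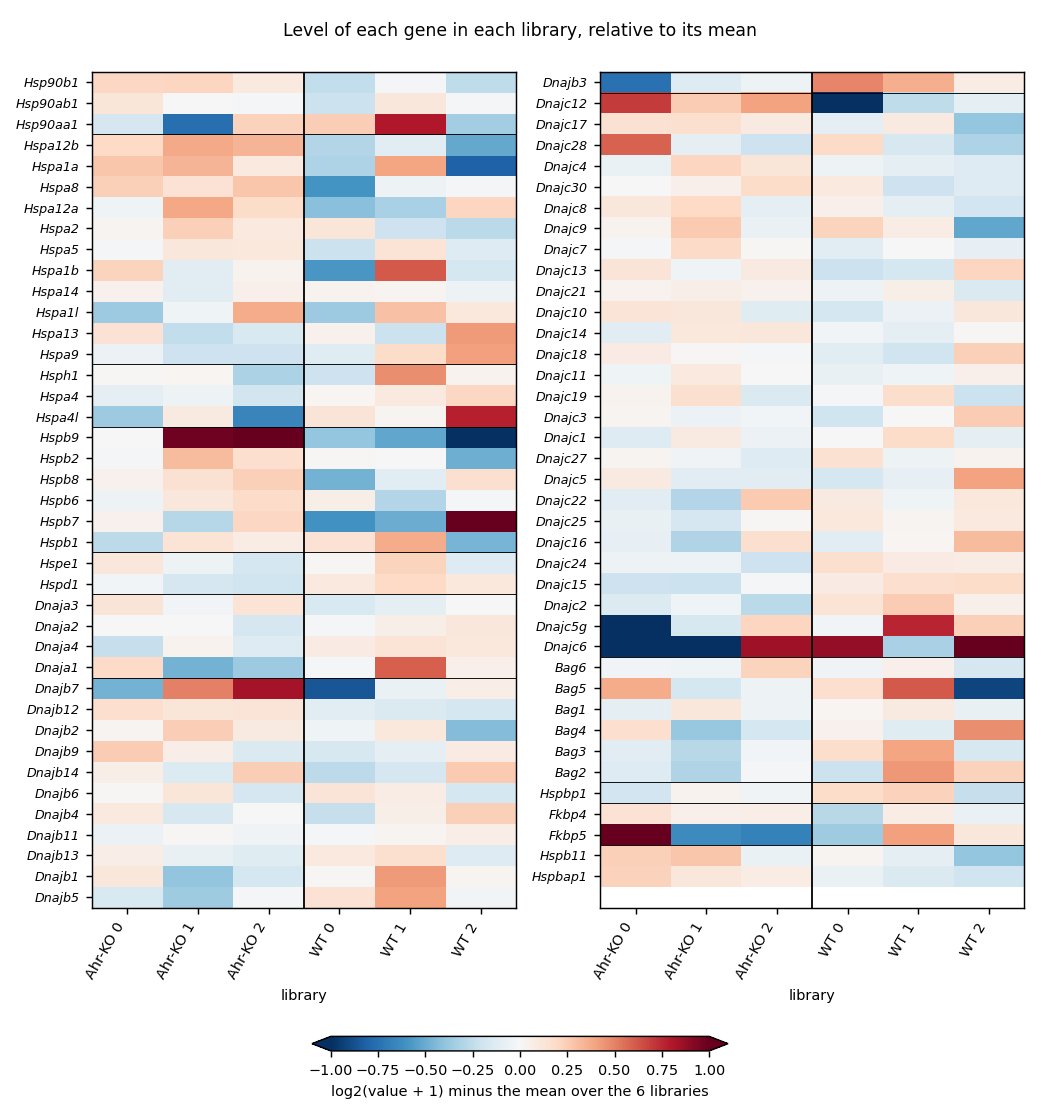
Level of each of the 79 members (rows, grouped by class) in each library (columns), as log2(value + 1) minus the member's mean over the 6 libraries, with red above and blue below the mean. WT library 1 was the highest for 21 members, among them Hsph1, Dnaja1, Dnajb1 and Hspa1b.

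Fkbp5 encodes FKBP51, a co-chaperone of steroid receptors that glucocorticoids induce. It was at 2543, 742 and 719 in Ahr-KO and at 901, 1534 and 1244 in WT. One Ahr-KO library was above all others and 2 were below all others, with means of 1335 ± 1046 in Ahr-KO and 1226 ± 317 in WT, and the difference of -0.11 ± 0.46 spanned -1.18 to 0.95 (adjusted p = 0.901). Without Ahr-KO library 0 it was -0.71 (adjusted p = 0.0856). Other glucocorticoid receptor targets were also uneven, and 0 of 10 passed with limma-trend or limma-voom (1 at an unadjusted p under 0.05, against 27.9% of all tested genes). Tsc22d3, which encodes GILZ, was at 14179, 2993 and 6319 in Ahr-KO and at 6589, 8617 and 5258 in WT. The transcription factor gene Zbtb16 was at 1384, 351 and 341 in Ahr-KO and at 122, 205 and 571 in WT. Of the 10 targets, 5 had their highest value in Ahr-KO library 0, where Fkbp5 was high, namely Tsc22d3, Zbtb16, Klf9, Errfi1 and Pdk4. The other 5 peaked elsewhere, Dusp1 and Mt2A in WT library 0, Cebpd in WT library 1, Sgk1 in WT library 2 and Per1 in Ahr-KO library 2. Their part in the Fkbp5 values was not tested. Fkbp4, which encodes FKBP52, was at 3169, 2968 and 3004 in Ahr-KO and at 2362, 3007 and 2738 in WT (0.18 ± 0.10, adjusted p = 0.308).

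Hspb7, a small heat shock protein of heart and vessels, was likewise set by 1 library. It was at 206, 164 and 231 in Ahr-KO and at 131, 141 and 445 in WT, with WT library 2 far above the rest (-0.03 ± 0.44, adjusted p = 0.977). Without that library the difference was 0.54 (adjusted p = 0.106). Cardiac muscle markers were also uneven, and all 9 tested were highest in WT library 2, with 0 of 9 tested past the threshold in limma-trend or limma-voom and 0 at an unadjusted p under 0.05. Their summed level was 1644 to 2523 in Ahr-KO and 893, 2197 and 7178 in WT libraries 0, 1 and 2. Myh6, the atrial myosin, was at 775, 474 and 0 in Ahr-KO and at 29.0, 569 and 1985 in WT. Myl7 was also listed at 0 in Ahr-KO library 2, and Nppa in Ahr-KO library 0 and WT library 0. Lung pieces can carry cardiac muscle of the pulmonary veins, and its part in the Hspb7 value was not tested. Among the Ahr-KO libraries, library 2 had the lowest cardiac marker sum and the highest Hspb7 value. Actc1 made up 1476 of that sum of 1644 and was at 775, 936 and 1476 in Ahr-KO. Myh6, Myl7, Myl4, Tnnt2, Tnni3, Ryr2 and Mybpc3 were lowest in library 2 among the Ahr-KO libraries. All 8 smooth muscle markers had their highest value of the 6 libraries in Ahr-KO library 2, and their part in the Hspb7 value was not tested either.

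**Figure D4:**
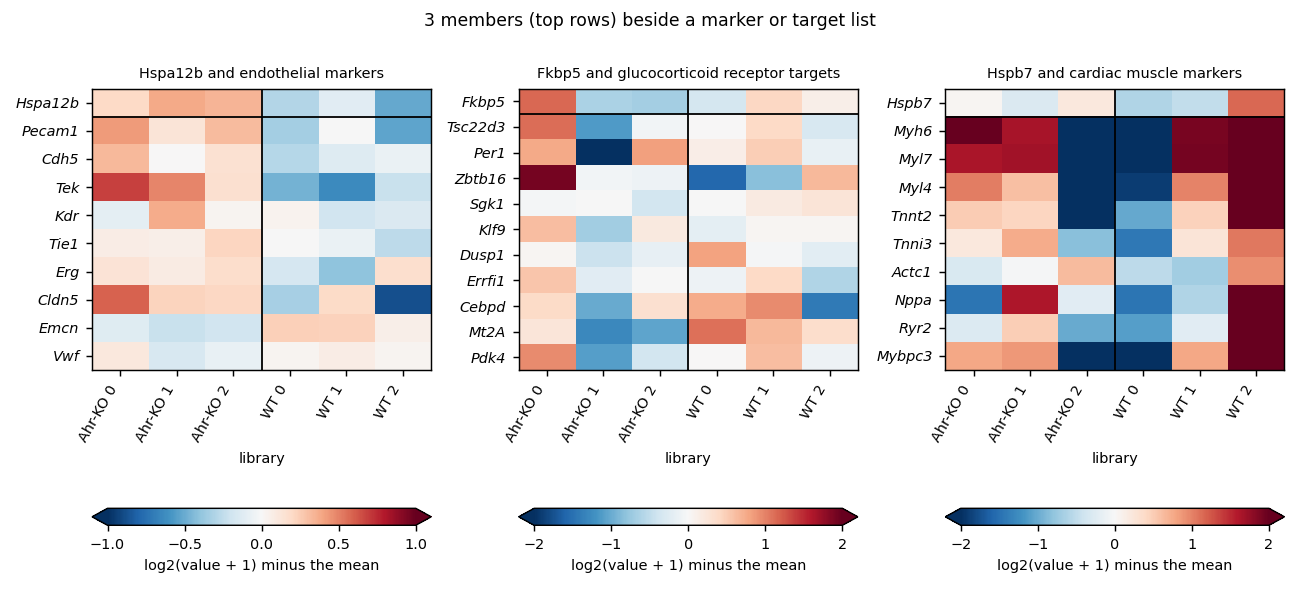
Hspa12b, Fkbp5 and Hspb7 (top row of each panel) beside endothelial markers, glucocorticoid receptor targets and cardiac muscle markers, by library (columns), as log2(value + 1) minus each gene's mean over the 6 libraries. Hspa12b was above its mean in the 3 Ahr-KO libraries, Fkbp5 peaked in Ahr-KO library 0 and Hspb7 in WT library 2.

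**Figure D5:**
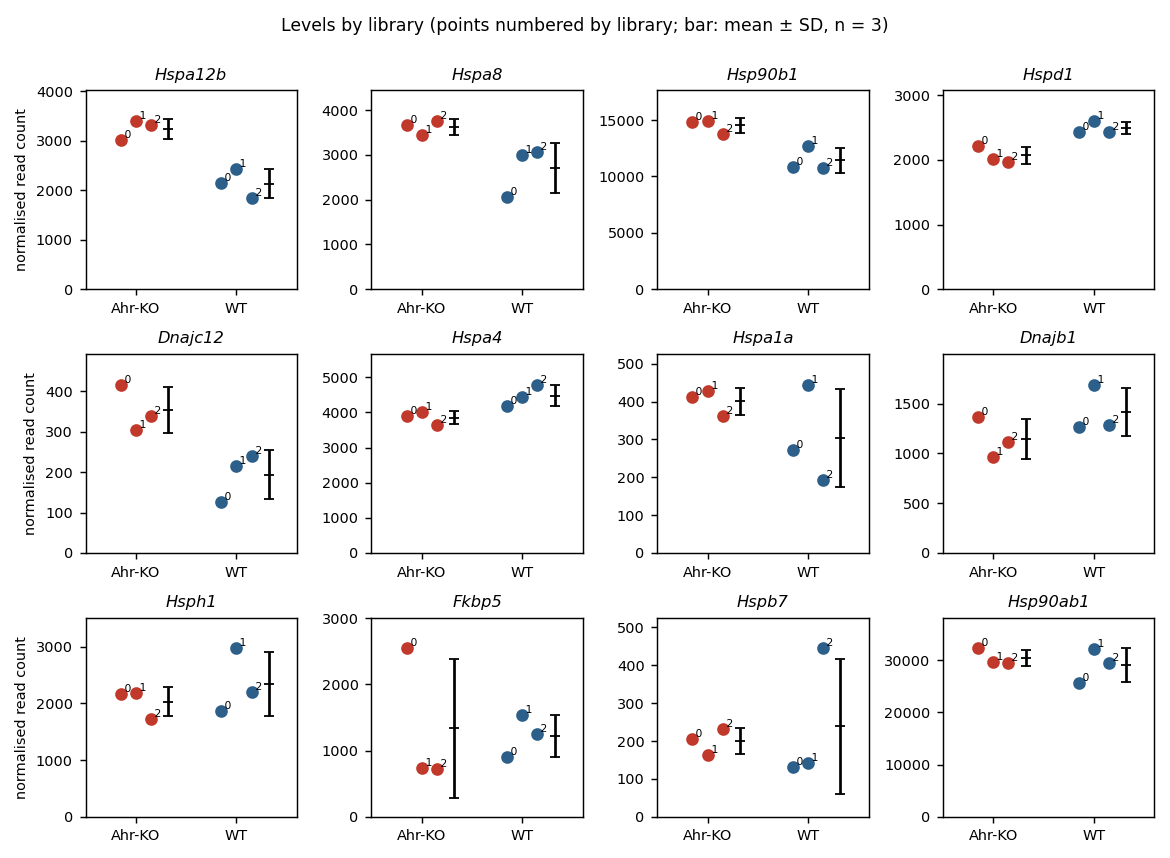
Normalised read counts (y axis, from 0) of 12 members in Ahr-KO and WT libraries (x axis), each point a library with its number, and the bar the mean ± SD (n = 3). Hspa12b, Hspa8, Hsp90b1, Hspd1, Dnajc12 and Hspa4 did not overlap between groups, and the other 6 did.

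Over all members the median SD within groups was 0.18 on the log2 scale, against 0.21 for all tested genes. With a mean of at least 100 it was 0.17 for the members and 0.16 for all such genes. The most variable members with a mean of at least 100 were Fkbp5 (0.78), Hspb7 (0.72) and Hsp90aa1 (0.54), followed by Hspa1b (0.44) and Hspa1a (0.44).

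The 2 members outside the chaperone classes by function were also compared. Hspb11 encodes IFT25, a part of the intraflagellar transport machinery, and was at 275, 283 and 222 in Ahr-KO and at 237, 217 and 178 in WT (0.31 ± 0.17, adjusted p = 0.281). Hspbap1, named as a partner of HSPB1, was at 290.1, 269 and 261 in Ahr-KO and at 236, 223 and 215 in WT, apart but not past the threshold (0.28 ± 0.13, adjusted p = 0.195).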

How the data were processed

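Bulk RNA-seq of total lung gave 1 table of 19828 entries and 6 libraries. The authors deposited normalised signal values per gene symbol, which mostly fall on whole multiples of a smallest step in each library (97.4% to 97.9% of values above 0, tolerance 0.05), as scaled estimated counts would. FastQC and the build rn6 are named, per the submitters' processing notes. The aligner, counter, annotation and strandedness: not given in the sources used here. Columns are numbered 0 to 2 and sample titles from 1, so columns were assigned to groups only. No label ties each library to its own rat, and the p-values may therefore reflect technical spread.

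Values were fitted as log2(value + 1) with limma 3.58.1 (R 4.3.3), genotype as the only term and a mean-variance trend. The code was tested on simulated data. The exact permutation test of 3 against 3 cannot go below 0.1, so none was run. Named members were those past the threshold, up to 2 of lowest p per class with fewer than 2 called, and 15 well-known ones, with up to 4 called genes per pathway list. Of 5 listed AHR targets, all called lower, only Cyp1a1 is named. Others are named after their values were seen. The members and lists were chosen with earlier results of these data known. Classes and compartments follow general knowledge. Sequences are from RefSeq (GRCr8), and protein sequences were not used here.
Alternatives were another pseudocount, filter, scaling, trend, threshold or model (limma-voom), the library number as a block, and each library left out in turn.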

Additional observations from a re-analysis of the deposited data

How the results depend on the processing

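The count of members lower in Ahr-KO was 0 with a pseudocount of 0.1, with no filter, with a filter of at least 10, without the trend, and in every fit that left out 1 library or both libraries numbered 2. It was 1 (Hspd1) after quantile normalisation, 1 with equal library totals, 1 with limma-voom and 1 at an adjusted p under 0.10. The count higher was 0 without the trend and 0 without both libraries numbered 2, 4 at an adjusted p under 0.10 (Hspa12b, Dnajc12, Dnajb12 and Hsp90b1), and 0 to 3 when 1 library was left out. It was 3 (Hspa12b, Hspa12a and Dnajc12) without WT library 2, and 0 when Ahr-KO library 1, Ahr-KO library 2 or WT library 0 was dropped. The share of all tested genes called in either direction was 18.5% at an adjusted p under 0.10. It was 6.19% without the trend and 3.69% without both libraries numbered 2. With 1 library left out it ran from 2.67% (without Ahr-KO library 2) to 12.1% (without WT library 2). Fitting the library number as a block left 1 member higher and 0 lower. Same-numbered libraries did not deviate together (r across genes -0.1, 0.07 and -0.07), so the numbers are not taken as pairs.

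Of 491 values of 31 named members under these alternatives, 463 kept sign and side of the threshold, and 15 changed sign in 6 members, none past the threshold. Hsp90ab1 was -0.016 after quantile normalisation and -0.019 with equal totals and with limma-voom. Hspa1b was -0.034 with limma-voom, Hspa5 -0.019 after quantile normalisation, and Fkbp5 0.225 without both libraries numbered 2. With 1 library left out, the estimates ran from -0.713 to 0.198 for Fkbp5, -0.016 to 0.148 for Hsp90ab1, -0.171 to 0.423 for Hspa1b, -0.276 to 0.142 for Hspb1 and -0.153 to 0.023 for Hspe1. Equal totals moved the median of all genes to -0.08 and limma-voom to -0.08. Both settings divide by library totals, which were higher in Ahr-KO (18.9 to 19.3 M) than in WT (17.8 to 18.0 M). The causes of the difference in totals and of the sign changes were not tested. Members under about 10 reads (Dnajc6, Dnajb7, Dnajc5g and Hspb9) carry counting error that limits any statement on them.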
